A study of Mus musculus with 2 samples.

Results

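The cells described here are Saa3-high monocytes and macrophages of mouse intrahepatic cholangiocarcinoma, a liver cancer of bile duct type. They numbered 184 of 21211 cell barcodes kept, with 24 of 10441 in the NAV library and 160 of 10770 in the MOCK library. A barcode was kept with at least 500 UMIs (unique molecular identifiers, the tags that count captured RNA molecules), at least 200 genes and under 20% mitochondrial UMIs. It was a member when it held at least 3 UMIs of Saa3, at least 1 of the mononuclear phagocyte genes Csf1r and Cd68 together, and at least 2 of the monocyte genes Ly6c2, Ccr2, Vcan and Chil3 together. Members also had fewer than 2 UMIs of Prg4, Alox15 and Serpinb2 together, at most 1 of the neutrophil receptor genes Csf3r and Cxcr2 together, at most 1 of Cd79a, Cd3e and Siglech together, fewer than 5 of Arg1 and fewer than 3 of Cxcl9. Barcodes that met every criterion but the one on Saa3 are called gate cells. The members were thus chosen by their measured UMIs of these genes, and their levels of them describe the choice.

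Tumours had been started in C57BL/6 mice by hydrodynamic injection of transposon vectors for Myr-AKT and YAPS127A, a constitutively active AKT and a constitutively active YAP, so every mouse of both groups carried both oncogenes. From day 7 the NAV group received NAV2729, an inhibitor of ARF GTPase activation, at 30 mg/kg every other day for 7 days, and the MOCK group received mock treatment. CD45+ cells, the leukocytes of the tumours, were sorted, pooled by group and profiled as 1 BD Rhapsody library per group. The series' design text gives 6 tumours per group and the protocol 3 pairs, and how many each pool held is thus unsettled. The age of the mice is not given in the sources used here.

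Saa3 encodes a serum amyloid A, a secreted acute phase protein that in mice is made by macrophages, fat cells and epithelia as well as by liver, and that can bind lipids and signal through formyl peptide and Toll-like receptors. Classical monocytes, marked in mice by Ly6c2 and Ccr2, leave the bone marrow for inflamed tissue and tumours and there give rise to macrophages and dendritic cells. Some monocytes are made in the marrow along a path shared with neutrophils and carry RNAs of granule and acute phase proteins.

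Of the genes that name these cells, Saa3, Chil3 and Ly6c2 were part of the rule and were at 1192, 5494 and 1341 CPM in the NAV members, against 1322, 8692 and 1725 CPM in the MOCK members. CPM, counts per 1e6, are the UMIs of a gene scaled to the summed UMIs of a cell set. Nos2, the inducible nitric oxide synthase of activated macrophages, was not part of the rule, and it had 0 UMIs in the 24 NAV members and 19 UMIs in 9 of the 160 MOCK members, which is 19.8 CPM. The NAV count of 0 has an exact upper limit of 30.3 CPM. Genes of tissue macrophages were low in most members, as described below. The data thus fit the monocyte part of the name better than the macrophage part, and the cells are called Saa3-high cells here. Ly6c2 and Chil3 have close paralogs, between which counting could split UMIs, but Ly6c1 and Chil4 had 0 UMIs in the members of both libraries.

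The promoters of the genes that were higher in the Saa3-high cells are shown because they can be read against the known regulators of acute phase genes, C/EBP, NF-kB and STAT factors. Saa3 (ENSMUSG00000040026) lies on the minus strand of chromosome 7 from 46711998 to 46715700, Lcn2 on the minus strand of chromosome 2 from 32384633 to 32388252, Slpi on the minus strand of chromosome 2 from 164354070 to 164389095 and S100a8 on the plus strand of chromosome 3 from 90668978 to 90670035, all in GRCm38. The 250 bases before each RefSeq start (GRCm38.p6) are given 5′ to 3′ along the gene's strand, with matches to the C/EBP-type motif TTGCNNAA or its reverse complement TTNNGCAA in capitals. The windows are chr7:46715677-46715926 for Saa3, chr2:32387740-32387989 for Lcn2, chr2:164356508-164356757 for Slpi and chr3:90668821-90669070 for S100a8. The gene spans above are from another annotation, GENCODE, with starts further upstream. By it the Lcn2 and Slpi windows lie wholly inside the gene, and the Saa3 and S100a8 windows in part. Distances below count from the RefSeq start.
Saa3: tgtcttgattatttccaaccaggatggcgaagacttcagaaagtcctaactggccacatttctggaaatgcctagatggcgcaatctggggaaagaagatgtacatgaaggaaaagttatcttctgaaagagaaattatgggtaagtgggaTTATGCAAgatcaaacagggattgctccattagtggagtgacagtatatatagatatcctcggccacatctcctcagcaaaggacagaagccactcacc
Lcn2: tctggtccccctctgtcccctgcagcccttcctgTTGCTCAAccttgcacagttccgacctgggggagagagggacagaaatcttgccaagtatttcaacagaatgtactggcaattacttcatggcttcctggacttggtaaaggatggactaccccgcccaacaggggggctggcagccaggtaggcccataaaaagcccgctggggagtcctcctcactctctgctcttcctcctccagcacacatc
Slpi: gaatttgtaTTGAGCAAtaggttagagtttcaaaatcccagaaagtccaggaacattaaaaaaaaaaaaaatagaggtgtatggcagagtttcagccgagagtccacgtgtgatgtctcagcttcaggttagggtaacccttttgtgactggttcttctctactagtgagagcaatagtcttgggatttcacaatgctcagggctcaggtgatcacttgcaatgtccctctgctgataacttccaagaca
S100a8: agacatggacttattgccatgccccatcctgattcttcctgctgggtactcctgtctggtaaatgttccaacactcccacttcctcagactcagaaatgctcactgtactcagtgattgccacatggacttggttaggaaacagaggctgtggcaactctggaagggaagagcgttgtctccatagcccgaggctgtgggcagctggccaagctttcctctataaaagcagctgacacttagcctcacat
The match began 99 bases before the start in Saa3 and read TTATGCAA, and it began 216 bases before in Lcn2 (TTGCTCAA) and 241 bases before in Slpi (TTGAGCAA). Of Saa3, Chil3 and the genes named below as higher, 11 were in the promoter table, and 5 of these held a match, namely Saa3, Lcn2, Mmp8, Slpi and C3. The motif was in 9.56% of all 32851 promoter windows of the same length. S100a8 held none, and 0 of the 11 held the NF-kB-type motif, GGGA and TTTCC with any base between them, or the STAT-type motif TTCCNGGAA, read on both strands, which were in 0.356% and 0.913% of all windows. No matches of different motifs overlapped in these windows, and a match is a description of sequence only.

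The Saa3-high cells were a smaller share of the NAV library. They made up 0.230% of NAV barcodes (95% exact binomial interval 0.147 to 0.342%) and 1.49% of MOCK barcodes (1.27 to 1.73%), a log2 ratio of NAV over MOCK of -2.69 (-3.38 to -2.07). Among gate cells they were 1.01% of 2380 in NAV and 5.02% of 3190 in MOCK, and among gate cells with at least 2 UMIs of Ly6c2 and fewer than 10 of the C1q genes they were 16 of 908 in NAV and 132 of 732 in MOCK, a log2 ratio of -3.36 (-4.20 to -2.60). Intervals throughout are 95%, treat UMIs or cells as independent and cover counting error only. With 1 library per group there is no replicate check, no test between groups was made, and fewer cells and fewer cells past a UMI threshold cannot be told apart. The NAV library was shallower, with a median of 2178 UMIs per kept barcode against 3882 in MOCK, while gate cells without Saa3 had medians of 4341 UMIs in NAV and 4944 in MOCK.

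**Figure D1:**
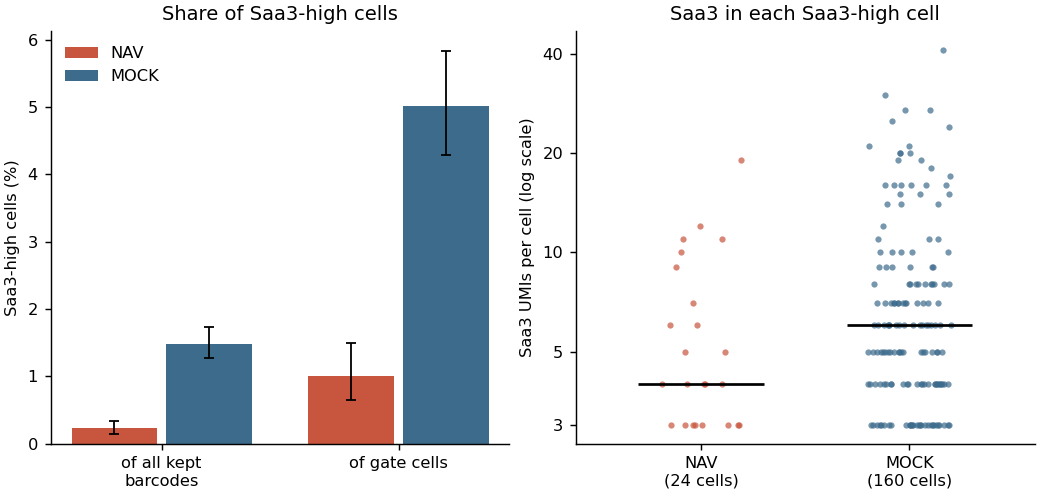
Left, the share of Saa3-high cells (percent) of all kept barcodes and of gate cells in the NAV and MOCK libraries, with exact 95% binomial intervals as bars. Right, the Saa3 UMIs of each Saa3-high cell on a log scale, 1 point per cell, with a range of 3 to 19 in NAV and 3 to 41 in MOCK.

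The summed Saa3 levels of the members were alike in the libraries, which the shared cut of 3 UMIs in part sets. The NAV members held a median of 4 Saa3 UMIs (range 3 to 19) and the MOCK members a median of 6 (3 to 41), and per 10000 UMIs of the cell the medians were 9.63 (3.55 to 27.7) in NAV and 10.4 (2.19 to 67.1) in MOCK. The log2 ratio of the summed levels was -0.15 (-0.41 to 0.10). At least 5 Saa3 UMIs were held by 11 of 24 NAV members and 105 of 160 MOCK members. Members held 37.0% of all 392 Saa3 UMIs of the NAV library and 47.0% of all 2692 of the MOCK library. Of the barcodes with at least 3 Saa3 UMIs, 41 in NAV and 264 in MOCK, 17 in NAV and 104 in MOCK were left out. A barcode could miss several criteria: 12 NAV and 55 MOCK barcodes exceeded the limit on the neutrophil receptor genes Csf3r and Cxcr2, and 0 NAV and 41 MOCK barcodes that on Prg4, Alox15 and Serpinb2, genes of peritoneal-type macrophages. The minimum of monocyte genes was missed by 2 NAV and 26 MOCK barcodes, and the limit on Arg1 by 2 NAV and 17 MOCK barcodes. The other liver-made acute phase genes of the family, Saa1 and Saa2, had 0 UMIs in the members.

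Gate cells, members included, held 60.7% of all Saa3 UMIs in NAV and 56.2% in MOCK, so a large share lay outside the gate. Gate cells with 1 or 2 Saa3 UMIs had 261 CPM in NAV and 252 CPM in MOCK, which their definition sets. Levels were lower in 4 other cell sets, which do not hold all barcodes outside the gate. Saa3 was at 15.8 CPM in NAV and 56.0 CPM in MOCK in macrophages with at least 5 UMIs of Arg1, at 9.45 CPM in NAV and 12.4 CPM in MOCK in C1q-high macrophages, and at 10.9 CPM in NAV and 31.6 CPM in MOCK in neutrophils. B cells, which should lack it, had 0 UMIs in 715 NAV cells, which allows a share of up to 0.420% of cells with a UMI, and 4 UMIs in 1 of 731 MOCK cells, at median depths of 1454 UMIs in NAV and 1304 in MOCK. The threshold cut a continuous range. Cells with exactly 2 Saa3 UMIs numbered 19 in NAV and 69 in MOCK, and those with exactly 3 numbered 8 in NAV and 29 in MOCK. Just inside the threshold Lcn2 was at 267 CPM in NAV and 1013 CPM in MOCK, and just outside it at 108 CPM in NAV and 724 CPM in MOCK.

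In the MOCK library the Saa3-high cells differed from gate cells without Saa3 by high RNAs of acute phase and granule proteins and low RNAs of macrophages and antigen presentation. The comparison cells numbered 2282 in NAV and 2853 in MOCK. A gene was called higher or lower with a level ratio of at least 2-fold, at least 50 CPM in either set and at least 20 UMIs over both sets. Of 3751 genes that met the minimum in MOCK, 145 (3.87%) were higher and 242 (6.45%) lower, and of 3737 in NAV 175 (4.68%) were higher and 219 (5.86%) lower. The NAV counts rest on 24 cells, in which 50 CPM is 6.08 UMIs. The genes named below were ranked in MOCK by the end of the interval nearest to 0, without the genes of the rule. The same cells gave the choice of members and these levels, so the ratios are a description.

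Lcn2, lipocalin 2, an acute phase protein that withholds iron from bacteria, was at 378 CPM in the NAV members (UMIs in 12 of 24 cells) and 1017 CPM in the MOCK members (140 of 160 cells). Gate cells without Saa3 had 75.2 CPM of it in NAV and 112 CPM in MOCK, and the log2 ratios of members over these cells were 2.33 (1.87 to 2.76) in NAV and 3.18 in MOCK. Lcn2 was thus higher in the Saa3-high cells of both libraries. Hp, the haemoglobin-binding haptoglobin, was at 189 CPM in NAV members and 789 CPM in MOCK members, with log2 ratios of 1.21 in NAV and 2.35 in MOCK. The NAV direction of Hp turned with cells thinned to 2000 UMIs (-0.85, where 8 NAV cells were still members), against cells with 1 or 2 Saa3 UMIs (-0.27) and against Ly6c2-positive cells without Saa3 (-0.0170). Slpi, a secreted inhibitor of neutrophil proteases, was at 49.3 CPM in NAV members and 367 CPM in MOCK members, with a log2 ratio of 3.02 in MOCK, and it did not meet the minimum in NAV. All 3 genes of the acute phase list that met the minimum were higher in MOCK (median log2 ratio 3.02) and both that met it in NAV (1.77), against medians of -0.0043 in MOCK and 0.05 in NAV over all genes tested. C3, the central complement component, was alike in the members, at 313 CPM in NAV and 254 CPM in MOCK, and had log2 ratios of 1.36 in NAV, which turned to -1.36 with the 8 thinned NAV cells, and 2.31 in MOCK.

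Genes better known from neutrophils followed in MOCK. S100a8, a subunit of calprotectin, had 5 UMIs in 5 NAV members (41.1 CPM) and 1979 UMIs in 120 MOCK members (2066 CPM), and gate cells without Saa3 had 73.2 CPM in NAV and 226 CPM in MOCK. The log2 ratio of members over those cells was 3.19 in MOCK and -0.83 (-2.46 to 0.40) in NAV. It was the only one of the named higher genes whose NAV ratio lay below 0. Wfdc21, a small secreted protein of the whey acidic protein family, was at 57.6 CPM in NAV members and 721 CPM in MOCK members, with log2 ratios of 1.40 (0.07 to 2.46) in NAV, which turned to -1.23 against cells with 1 or 2 Saa3 UMIs, and 3.26 (3.13 to 3.40) in MOCK. Mmp8, the neutrophil collagenase, was at 230 CPM in NAV members and 757 CPM in MOCK members (log2 ratio 1.15 in NAV, 2.96 in MOCK), and its NAV direction turned with thinning (-1.13), with Saa3 of at least 5 UMIs (-1.50) and against Ly6c2-positive cells without Saa3 (-0.20). The remaining higher genes of this kind, Lrg1, a secreted glycoprotein, Cd177, a neutrophil surface protein, Tarm1, an activating receptor of myeloid cells, and Ifitm6 of the interferon-induced transmembrane family, had log2 ratios of 2.30 to 3.08 in MOCK. The NAV ratio was 0.58 for Ifitm6, and the other 3 did not meet the minimum in NAV.

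Of the neutrophil list, 3 of 4 genes that met the minimum were higher in MOCK (S100a8, S100a9 and Mmp8, median log2 ratio 2.55) and 2 of 4 in NAV (Mmp8 and Hdc, which makes histamine, median 0.18). S100a9, the partner of S100a8 in calprotectin, had 0 UMIs in NAV members and 221 UMIs in 42 MOCK members, with a log2 ratio of 2.14 in MOCK. Not all other genes of the list were near 0 in the members. Il1r2 and Hdc met the minimum between NAV and MOCK members, with Il1r2 lower and Hdc higher in NAV. Retnlg, Ltf, Ly6g, Camp and Ngp were at or near 0 in the members. Retnlg, at 2722 CPM in NAV neutrophils and 11846 CPM in MOCK neutrophils, had 1 UMI in the NAV members and 7 in the MOCK members. Ltf and Ly6g had 0 UMIs in NAV members and 2 each in MOCK members, and Camp and Ngp had 0 in both. The ratio of S100a8 to S100a9 UMIs was 5 to 0 in NAV members and 8.95 (7.79 to 10.3) in MOCK members, against 1.62 in NAV neutrophils and 1.64 in MOCK neutrophils. Gate cells with 1 or 2 Saa3 UMIs had ratios of 6.20 in NAV and 9.57 in MOCK. In Ly6c2-positive cells without Saa3 the ratio was 8.03 in NAV and 5.70 in MOCK, so a high ratio was not particular to the Saa3-high cells. The neutrophil list summed to 493 CPM in NAV members and 3362 CPM in MOCK members, against 450 CPM in NAV and 612 CPM in MOCK in gate cells without Saa3, and 20369 CPM in NAV neutrophils and 48093 CPM in MOCK neutrophils. The part of neutrophil RNA in the members' values was not tested. With each cell thinned to 2000 UMIs, S100a8 was detected in 4.17% of NAV members and 63.3% of MOCK members, and in B cells, where it is background, in 3.17% in NAV and 7.58% in MOCK. Without thinning S100a8 was in 5 of 24 NAV members and 120 of 160 MOCK members, and in 3.78% of B cells in NAV and 4.65% in MOCK.

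**Figure D2:**
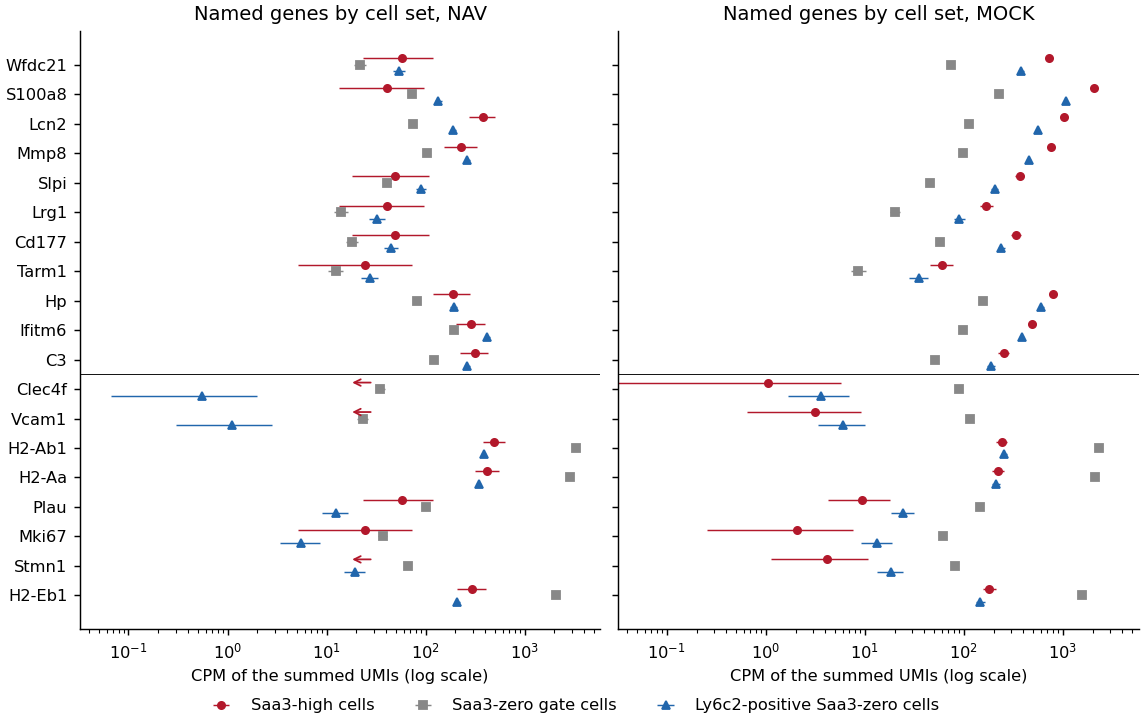
Levels (CPM of summed UMIs, log scale, exact 95% Poisson intervals) of the genes named as higher and the 8 named as lower in Saa3-high cells of MOCK, in Saa3-high cells, Ly6c2-positive cells without Saa3 and all gate cells without Saa3, NAV on the left and MOCK on the right, with arrows from the upper limit where a set had 0 UMIs. In MOCK the Saa3-high cells lie above the other sets for all the upper genes, whereas in NAV S100a8 lies below both other sets.

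Most of the MOCK difference was shared with Ly6c2-positive monocytes that had no Saa3. These were gate cells with 0 Saa3 UMIs, at least 2 UMIs of Ly6c2 and fewer than 10 UMIs of C1qa, C1qb and C1qc together, 840 in NAV and 488 in MOCK. Against them only 4 of 3551 genes (0.113%) were higher in the MOCK members, namely Saa3, C1qb (1.54), C1qc (1.65) and Hspa1b (1.38), and 2 (0.0563%) were lower, the integrin gene Itgax (-1.10) and the transcription factor gene Nfatc1 (-1.04). Saa3 and the C1q genes differ here by the choice of the cells, and Hspa1b has a near-identical copy, Hspa1a, with which UMIs may be shared. The named higher genes lay on the same side as before in MOCK but under 2-fold, with log2 ratios of 0.96 for S100a8, 0.92 for Wfdc21, 0.90 for Lrg1, 0.85 for Lcn2 and Slpi, and 0.74 for Mmp8. Ly6c2 itself was at 0.01 and Chil3 at 0.23. The MOCK members here include the 16 with at least 10 UMIs of the C1q genes, a kind of cell that the comparison set leaves out. In the other 144 MOCK members S100a8 was at 2348 CPM, Wfdc21 at 797, Lrg1 at 197 and Lcn2 at 1130. The Ly6c2-positive MOCK cells had 1064, 380, 90.4 and 562 CPM of these, so each passed 2-fold on a like C1q cut. Slpi (405 against 204 CPM) and Mmp8 (838 against 453 CPM) stayed under it. In NAV 199 of 3688 genes (5.4%) were higher and 165 (4.47%) lower, at the depth of 24 cells, with Lcn2 at 1.01, Mmp8 at -0.20, Hp at -0.02 and S100a8 at -1.71.

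Other genes of classical monocytes were higher in the Saa3-high cells of MOCK than in all gate cells without Saa3. Of the 10 genes of that list that met the minimum and were not in the rule, 9 were higher in MOCK (median log2 ratio 1.72), and 1 of 9 in NAV (0.55). Plac8, a small cysteine-rich protein of monocytes, was at 2245 CPM in NAV members and 2528 CPM in MOCK members, with log2 ratios of 0.38 in NAV and 1.66 in MOCK. F13a1, a coagulation factor subunit, was at 773 CPM in NAV members and 1554 CPM in MOCK members (log2 ratio 0.59 in NAV, 1.77 in MOCK), and Mgst1, a microsomal glutathione transferase, at 345 CPM in NAV members and 682 CPM in MOCK members (0.78 in NAV, 2.13 in MOCK). Cx3cr1, the fractalkine receptor of patrolling monocytes and macrophages, was at 477 CPM in NAV members and 215 CPM in MOCK members, with log2 ratios of -0.11 in NAV and -1.53 in MOCK. Of the gate cells without Saa3, 685 of 2282 in NAV and 1529 of 2853 in MOCK had at least 10 UMIs of the C1q genes, and the part of this in the MOCK ratios was not tested.

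Among receptors described for serum amyloid A, Fpr2, a formyl peptide receptor, was higher in the Saa3-high cells, at 156 CPM in NAV and 184 CPM in MOCK, with log2 ratios of 1.26 in NAV and 1.86 in MOCK. Tlr4, the endotoxin receptor, was at 49.3 CPM in NAV and 128 CPM in MOCK and was higher in MOCK (1.10). Tlr2, a receptor for bacterial lipoproteins, was at 304 CPM in NAV and 449 CPM in MOCK, with log2 ratios of -0.43 in NAV and -0.15 in MOCK, and the scavenger receptor gene Cd36 was lower, with -3.18 in NAV and -3.66 in MOCK. Of 8 genes of this list in each library 2 were higher and 1 lower. Against Ly6c2-positive cells without Saa3, 0 of 6 genes of the list were higher and 0 lower in MOCK. In NAV 1 of 8 was then higher, P2rx7, and 1 lower, Cd36. Most listed regulators of acute phase genes were near the comparison cells: Cebpb, which encodes a C/EBP factor, was at 3413 CPM in NAV and 3487 CPM in MOCK (log2 ratio 0.38 in NAV, 0.51 in MOCK), and Stat3, the factor downstream of interleukin 6, at 452 CPM in NAV and 881 CPM in MOCK (-0.08 in NAV, 0.23 in MOCK). In the NF-kB and STAT3 list 0 of 18 genes were higher and 0 lower in NAV, and 0 of 19 were higher and 3 lower in MOCK. Those lower in MOCK were Nfkbiz, Tnfaip3 and the C/EBP factor gene Cebpa. Among inflammatory genes, Il1b, the cytokine interleukin 1 beta, was at 2730 CPM in NAV and 2336 CPM in MOCK (log2 ratio 0.32 in NAV, -0.17 in MOCK).

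Antigen presentation genes were lower in the Saa3-high cells of both libraries than in all gate cells without Saa3, and macrophage genes mostly in MOCK. In the UMIs summed over all members the direction did not hold against Ly6c2-positive cells without Saa3. In the members with fewer than 10 UMIs of the C1q genes, H2-Ab1 was lower than in those cells in both libraries. H2-Ab1, a chain of an MHC class II molecule, was at 493 CPM in NAV members and 242 CPM in MOCK members, against 3323 CPM in NAV and 2344 CPM in MOCK in gate cells without Saa3, with log2 ratios of -2.75 in NAV and -3.27 in MOCK. H2-Aa and H2-Eb1, chains of such molecules as well, had log2 ratios of -2.79 and -2.82 in NAV and -3.27 and -3.10 in MOCK. Of 9 MHC class II genes 6 were lower in NAV (median -1.85) and 7 in MOCK (median -2.44), and 0 were higher. Against Ly6c2-positive cells without Saa3, H2-Ab1 was at 0.35, H2-Aa at 0.29 and H2-Eb1 at 0.51 in NAV, with a list median of 0.43 and 1 of 8 genes higher, H2-DMa, which helps load peptides. These NAV values rest on few cells. H2-Ab1 had 60 UMIs in 5 NAV members, 44 of them in 1 cell. H2-Aa had 51 UMIs in 5 members, 37 in 1 cell, and H2-Eb1 36 UMIs in 4 members, 28 in 1 cell. In the 18 NAV members with fewer than 10 UMIs of the C1q genes H2-Ab1 was at 35.3 CPM, against 386 CPM in the NAV Ly6c2-positive cells. In MOCK H2-Ab1 was at -0.08, H2-Aa at 0.06 and H2-Eb1 at 0.30, and 0 of the 7 genes of the list that met the minimum differed by 2-fold. In the 144 MOCK members with fewer than 10 UMIs of the C1q genes these 3 were at 134, 127 and 111 CPM. The MOCK Ly6c2-positive cells, chosen with the same C1q limit, had 255, 212 and 147 CPM of them. C1qb, a chain of complement C1q made by macrophages, was at 814 CPM in NAV members and 278 CPM in MOCK members, with log2 ratios of -0.58 in NAV and -2.76 in MOCK against all gate cells without Saa3.

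Among the C1q macrophage genes 6 of 14 were lower in NAV (median -0.35) and 12 of 15 in MOCK (-2.14). Against Ly6c2-positive cells without Saa3, which were chosen to be low in C1q genes, 8 of 11 were higher in NAV (median 1.54) and 2 of 9 in MOCK (0.08). The 4 Kupffer cell genes that met the minimum in MOCK were all lower (median -3.77). In NAV 1 of 2 was higher, Marco, a scavenger receptor, from 11 UMIs in 1 cell. Clec4f, a lectin of Kupffer cells, had 0 UMIs in NAV members and 1 UMI in MOCK members (-6.41), and Vcam1, an adhesion molecule of resident macrophages, 0 UMIs in NAV and a log2 ratio of -5.19 in MOCK. Plau, which encodes the protease urokinase, was at 57.6 CPM in NAV members and 9.40 CPM in MOCK members, with log2 ratios of -0.80 in NAV and -3.95 in MOCK. Cell division genes were low against all gate cells without Saa3, with 2 of 4 genes of the list lower in NAV and 5 of 7 in MOCK. Mki67, a proliferation marker, had a log2 ratio of -4.88 in MOCK, and 3 UMIs in 1 NAV member, under the minimum. Stmn1, a microtubule regulator, was at -4.29 in MOCK, and Top2a, a topoisomerase of dividing cells, had 0 UMIs in NAV members and 3 in MOCK members. Against Ly6c2-positive cells without Saa3, 1 of 3 genes of the list was lower in NAV and 0 of 3 in MOCK. Chemokines were lower for 4 of 10 genes in NAV (median -0.46) and 8 of 13 in MOCK (-2.18), among them Cxcl16, a membrane-bound chemokine, at 132 CPM in NAV and 57.4 CPM in MOCK (log2 ratio -1.17 in NAV, -2.67 in MOCK). Against Ly6c2-positive cells without Saa3, 0 of 7 chemokine genes were lower and 0 higher in MOCK, and 1 of 7 was lower and 1 higher in NAV.

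Lists of general metabolism and of the pathway of the compound did not differ by 2-fold in any gene between the Saa3-high cells and gate cells without Saa3. Among 18 glycolysis genes, 16 endoplasmic reticulum chaperone genes and 15 genes of the COPI coat and ARF GTPases, 0 were higher and 0 lower in either library. The COPI and ARF list had medians of 0.10 in NAV and 0.26 in MOCK, and Arf6, an ARF GTPase, was at 510 CPM in NAV members and 435 CPM in MOCK members. Type I interferon genes were mixed, with 1 of 9 higher and 2 of 9 lower in each library.

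**Figure D3:**
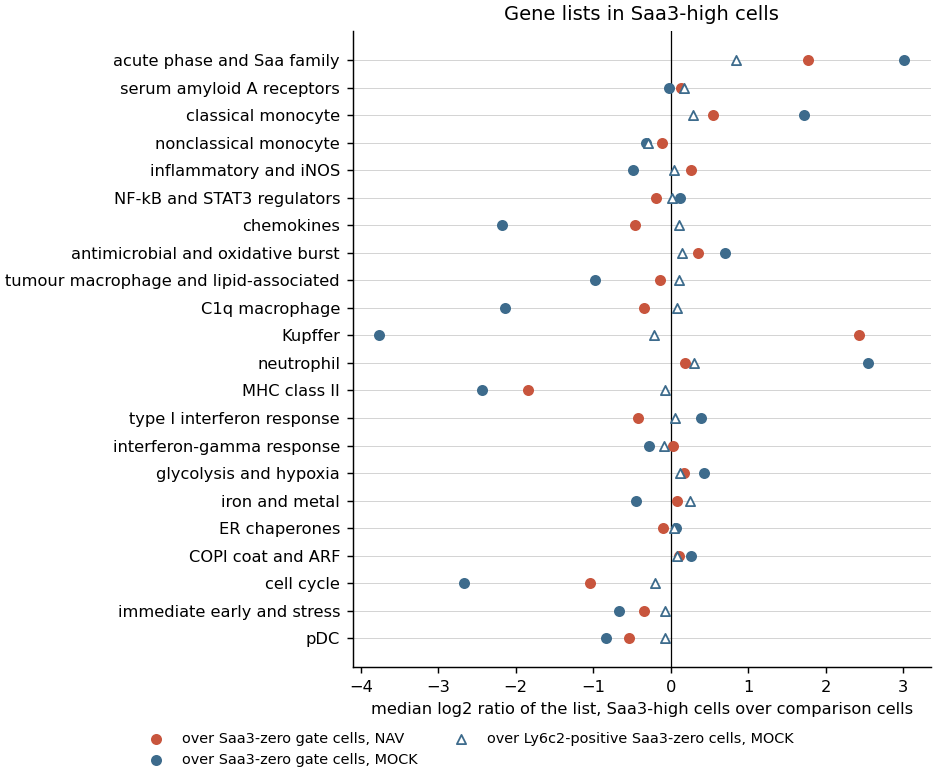
Median log2 ratio of each gene list over its members that met the minimum, Saa3-high cells over gate cells without Saa3 in NAV and in MOCK, and over Ly6c2-positive cells without Saa3 in MOCK. In MOCK the acute phase list lies at 3.02 and the Kupffer list at -3.77 against all gate cells without Saa3, and the acute phase list lies at 0.85 against the Ly6c2-positive cells.

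In MOCK gate cells several genes moved with the Saa3 count, mostly between cells without Saa3 and the members. Cells with 0 to 2 Saa3 UMIs are not members, and the bins are set by a gene of the rule. From cells with 0 Saa3 UMIs through 1 to 2, 3 to 5, 6 to 9 and 10 or more (2853, 177, 75, 49 and 36 cells), Lcn2 was at 112, 517, 1040, 975 and 1020 CPM. S100a8 was at 227, 998, 1884, 2077 and 2442 CPM along these bins, and C1qb at 1875, 492, 312, 267 and 217 CPM. Lcn2 was thus about level from 3 UMIs on, while S100a8 and C1qb kept moving. Hp was at 155, 566, 831, 762 and 734 CPM along the bins and did not rise further among the members. H2-Aa had no such order, with 2134, 659, 261, 39.7 and 369 CPM. The NAV bins held 2282, 74, 15, 4 and 5 cells, and the upper ones are too thin to read.

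**Figure D4:**
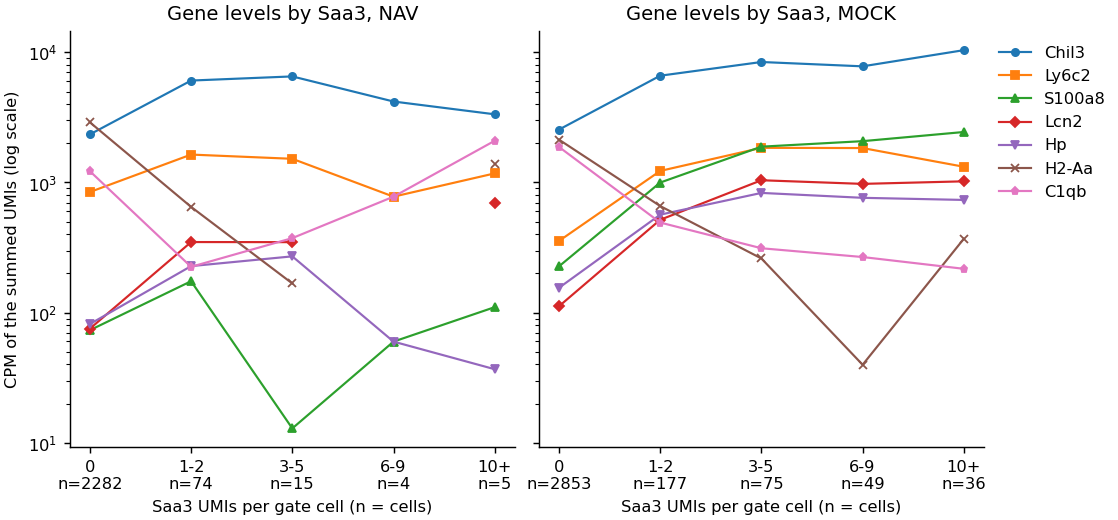
Levels (CPM of summed UMIs, log scale) of selected genes in gate cells by Saa3 UMIs per cell, NAV on the left and MOCK on the right, with the number of cells under each bin. In MOCK Lcn2 is at 112 CPM in cells without Saa3 and at 1020 CPM in cells with 10 or more Saa3 UMIs, and C1qb is at 1875 and 217 CPM.

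A minority of the Saa3-high cells had macrophage RNAs. Cells with at least 10 UMIs of C1qa, C1qb and C1qc together were 6 of 24 NAV members and 16 of 160 MOCK members. In NAV these 6 cells had 2575 CPM of C1qb, 1562 CPM of H2-Ab1 and 2027 CPM of Gpnmb, a glycoprotein of lysosome-rich macrophages, against 58.8, 35.3 and 58.8 CPM in the other 18. C1qb is high in the 6 by their choice. H2-Ab1 was detected in 2 of the 6 and Gpnmb in 4, and 1 cell held 44 of the 60 H2-Ab1 UMIs of all NAV members. The 6 cells had 82.2 CPM of Lcn2, against 505 CPM in the other 18, while Saa3 was at 1315 CPM in the 6 and 1140 CPM in the 18. In MOCK the 16 cells had 376 CPM of Lcn2 and 466 CPM of S100a8, against 1130 and 2348 CPM in the other 144. Their median depth was 6545 UMIs in NAV and 8803.5 in MOCK, against 4501 in the other NAV members and 5557.5 in the other MOCK members. A doublet score above 0.25 by Scrublet was found in 0 NAV and 4 MOCK members.

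Between the treatments, RNAs of neutrophil-type and acute phase genes were lower in the NAV members. Of 3758 genes that met the minimum 259 (6.89%) were higher in NAV and 303 (8.06%) lower, from 121594 UMIs in NAV and 957942 in MOCK. Leaving out, for each gene, the member of each library with the most UMIs of it gave 67 higher and 568 lower, a step that takes a larger part of 24 cells than of 160. The members' median depth was 4921.5 UMIs in NAV and 5750.5 in MOCK. S100a8 had a log2 ratio of NAV over MOCK of -5.65 (-7.28 to -4.43), and its partner S100a9 had 0 UMIs in NAV and 221 in MOCK, a log2 ratio of -3.23 or below at a floor of 3 counts over the NAV members, with an exact upper limit of -2.91. Wfdc21 was at -3.65 (-4.97 to -2.60), Slpi at -2.90, Cd177 at -2.77, Hp at -2.06 (-2.73 to -1.46) and Lcn2 at -1.43. All 3 acute phase genes that met the minimum were lower (median -2.06), as were 4 of 10 classical monocyte genes (-0.89) and 4 of 14 antimicrobial genes.

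The same genes were lower in NAV in monocytes without Saa3 and in neutrophils. In Ly6c2-positive cells without Saa3, where 14 of 3569 genes (0.392%) were higher and 136 (3.81%) lower in NAV, the log2 ratios were -2.98 (-3.12 to -2.84) for S100a8, -3.47 for S100a9, -2.82 for Wfdc21, -2.43 for Cd177, -1.67 for Hp, -1.58 for Lcn2 and -1.18 for Slpi. The Lcn2 ratio was thus close in the Saa3-high cells and in these monocytes, and the S100a8 ratio of the Saa3-high cells lay further below 0, with intervals that did not overlap, on 5 NAV UMIs. The difference itself was not tested. In all gate cells without Saa3, in which 10 of 3636 genes (0.275%) were higher and 133 (3.66%) lower, the values were -1.63 for S100a8 and -0.57 for Lcn2. In neutrophils S100a8 was at 4966 CPM in NAV and 14417 CPM in MOCK. Lcn2 was there at 550 CPM in NAV and 2483 CPM in MOCK, and Hp at 117 CPM in NAV and 984 CPM in MOCK. In B cells, where S100a8 is background, it was at 24.2 CPM in NAV and 93.2 CPM in MOCK. How far the difference is one of the whole library was not tested. Of the other genes ranked as lower in NAV members, Fau, a ribosomal protein precursor, was at -2.70, and at -2.45 in the Ly6c2-positive cells. Ecm1, an extracellular matrix protein, was at -4.25 on 1 NAV UMI, and at -3.52 in those cells. Jaml, a junction adhesion molecule of leukocytes, had 0 UMIs in NAV and 78 in MOCK, and was at -1.15 in the Ly6c2-positive cells.

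Several of the genes higher in the NAV members came from few cells. Spp1, the secreted phosphoprotein osteopontin, had 90 UMIs in 5 NAV members, 81 of them in 1 cell (log2 ratio 2.39, and -0.47 without the highest cell of each library). Fabp5, a fatty acid binding protein, had 69 UMIs in 9 cells, 46 in 1 of them (2.76), and Gpnmb 79 UMIs in 5 cells, 55 in 1 of them (2.39). Ly6a, which encodes the surface protein Sca-1, had 28 UMIs in 3 cells (3.88), Cd63, a lysosomal tetraspanin, 38 UMIs in 4 cells (3.23), and Egr1, an immediate early transcription factor, 11 UMIs in 2 cells (2.98). Such values describe single cells and not the NAV members as a whole. Nr4a3, an immediate early nuclear receptor, had 46 UMIs in 13 cells, 22 in 1 of them (1.81, and 0.96 without the highest cell of each library). Gbp2, an interferon-inducible GTPase, had 11 UMIs in 4 cells, 8 in 1 of them (2.74, and 0.98 without the highest cells), and its ratio turned to -0.44 without C1q-rich members. Ly6i, of the Ly6 family of surface proteins, had 21 UMIs in 7 cells, 7 in 1 of them (3.46, and 3.08 without the highest cells), and Med26, a Mediator subunit, 11 UMIs in 8 cells (2.74, and 2.39 without them). In Ly6c2-positive cells without Saa3 the ratios were 1.52 for Gpnmb, 1.34 for Gbp2, 1.10 for Ly6i, 0.44 for Fabp5, -0.02 for Ly6a and -0.78 for Spp1.

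**Figure D5:**
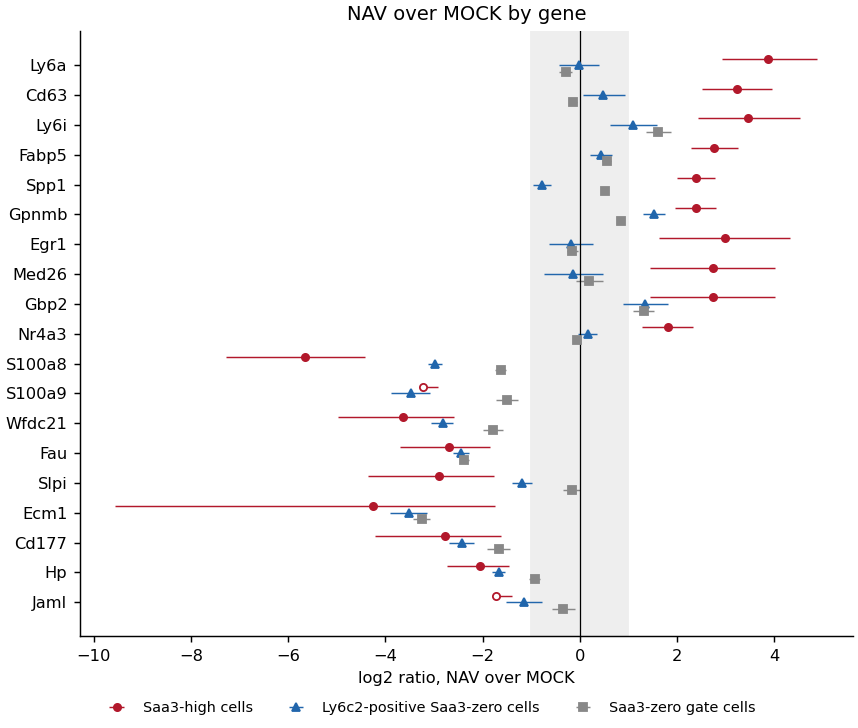
Log2 ratio of NAV over MOCK with exact 95% intervals for the named genes in Saa3-high cells, Ly6c2-positive cells without Saa3 and all gate cells without Saa3, open symbols being bounds at a floor of 3 counts and the grey band under 2-fold. S100a8, Wfdc21 and Hp lie below 0 in all 3 cell sets, while Spp1 lies above 0 in the Saa3-high cells and below it in the Ly6c2-positive cells.

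By list, 6 of 11 C1q macrophage genes (median log2 ratio 1.10), 6 of 15 lipid and tumour macrophage genes (0.21), 5 of 10 interferon-gamma genes (0.79) and 2 of 8 MHC class II genes (0.79) were higher in the NAV members, where C1q-rich cells were 6 of 24, against 16 of 160 in MOCK. The median of all genes tested was 0.05. Saa3, Chil3 (-0.66) and Ly6c2 (-0.36), the genes of the rule, were within 2-fold. The COPI and ARF list had 0 of 15 genes that differed by 2-fold and a median of -0.09. RNA does not show whether the compound acted on these proteins.

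Markers of other cells were few in the Saa3-high cells. B cell markers summed to 41.1 CPM in NAV members (2 of 9 genes with a UMI) and 24.0 CPM in MOCK members (3 of 9), and T and NK cell markers to 8.22 CPM in NAV (1 of 13) and 7.31 CPM in MOCK (5 of 13). Epithelial markers were at 0 in NAV and 4.18 CPM in MOCK, platelet markers at 0 in NAV and 5.22 CPM in MOCK, and red cell markers at 0 in both. Endothelial markers were at 123 CPM in NAV and 5.22 CPM in MOCK, and 14 of the 15 NAV UMIs were of Pecam1, an adhesion molecule that leukocytes also carry. Hepatocyte markers summed to 263 CPM in NAV (4 of 18 genes) and 325 CPM in MOCK (3 of 18), with 1 UMI of Alb, the main plasma protein of hepatocytes, in each library and 0 of Apoa1. Mitochondrial UMIs had a median of 3.40% in NAV members and 2.57% in MOCK members. The part of these values in the differences above was not tested.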

How the data were processed

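CD45+ cells pooled per group, NAV and MOCK, were measured as 1 library each. Counts were used as deposited by the authors: whole-number UMI counts of 31253 genes per barcode, with no barcode under 500 UMIs. The deposited barcodes numbered 10465 in NAV (31454031 UMIs) and 10863 in MOCK (45976676 UMIs). The build mm10 and the tools Cell Ranger, fastp and STARsolo (2.7.10a) are named, per the submitters' processing notes, without their roles. The libraries shared 5 barcode sequences, of which 0 were members.

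UMIs were summed per cell set and library, divided by the set's total (CPM) and compared as log2 ratios with exact 95% intervals conditional on the sum of both counts. A count of 0 was replaced by a floor of 3 counts over the set, which gives a bound. Shares have exact binomial (Clopper-Pearson) intervals and CPM exact Poisson intervals. With 1 library per group no test was possible, and a call is a ratio of at least 2-fold with at least 50 CPM in either set and 20 UMIs over both. The procedure was run on simulated independent Poisson counts, which the intervals themselves assume. That run thus cannot show how the intervals hold with the spread between cells seen here. Scrublet's automatic threshold marked 0 NAV and 1 MOCK barcodes and had not worked, so doublets were kept, and removing the 256 NAV and 262 MOCK barcodes with a score above 0.25 was an alternative. Neutrophils were barcodes with at least 2 UMIs of Csf3r and Cxcr2 together and none of Csf1r, Cd79a and Cd3e, and B cells had at least 2 of Cd79a and none of Cd3e, Csf3r and Csf1r. Arg1-high macrophages held at least 5 UMIs of Arg1, and C1q-high macrophages at least 10 of the C1q genes.

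The genes named were the 4 markers of the name, the 12 higher and 8 lower in MOCK members against gate cells without Saa3, and the 10 higher and 10 lower in NAV members against MOCK members, each ranked by the interval's end nearest to 0 among genes with at least 50 UMIs over both sets for the first comparison and 20 for the second. Plac8, Fpr2 and other list genes were added as members of 30 gene lists with 429 symbols, of which Clec7a, Mx2 and Fcn3 were not analysed here. Some genes that the rule names are not reported here. The members, the lists and the genes were chosen with earlier results of these data known. Coordinates are from GENCODE vM21 (GRCm38), in which all 39 named genes were found, and promoters from RefSeq (GRCm38.p6). Versions were Python 3.11.15, numpy 2.4.6, scipy 1.17.1, pandas 2.3.3, scanpy 1.11.5 and matplotlib 3.10.9.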

Additional observations from a re-analysis of the deposited data

Results flagged for a closer look

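S100a8 differed between the libraries in its relation to Saa3-high cells. The log2 ratio of Saa3-high cells over gate cells without Saa3 was -0.832 (-2.46 to 0.40) in NAV, on 5 UMIs, and 3.19 in MOCK, on 1979 UMIs, so the values lay on opposite sides of 0. The difference was not tested, since each group has 1 library.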

How the results depend on the processing

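No paired analysis was possible because each group has 1 library. The lower share of Saa3-high cells in NAV kept its direction under all 12 alternatives, with log2 ratios between -3.36 and -2.31. Counts of genes moved with the settings. With Saa3 of at least 5 UMIs, 391 genes were higher and 492 lower in NAV than MOCK members, and 521 higher and 372 lower in NAV members than in gate cells without Saa3. Without a minimum CPM the counts were 841 and 782 for NAV over MOCK, 1080 and 718 for NAV members, and 820 and 1483 for MOCK members. Thinned to 2000 UMIs, with 8 NAV and 67 MOCK cells still members, 143 were higher in NAV than MOCK, and 1436 in NAV and 271 in MOCK members over gate cells without Saa3. Without the member of each library with the most UMIs of the gene, 67 were higher and 568 lower in NAV than MOCK, and without C1q-rich members 311 were higher and 344 lower in NAV members. Against cells with 1 or 2 Saa3 UMIs, 12 were higher and 32 lower in MOCK members, and against Ly6c2-positive cells 4 and 2.

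Of single-gene values, 6 of 190 reversed for NAV over MOCK, 2 of 180 for MOCK members and 12 of 155 for NAV members, and the cause was not tested. For NAV over MOCK these were Fabp5 (-0.93) and Gpnmb (-0.44) with thinning, Spp1 with Saa3 of at least 5 UMIs (-2.35) and without the member with its most UMIs (-0.47), and Gpnmb (-1.02) and Gbp2 (-0.44) without C1q-rich members. Against Ly6c2-positive cells H2-Aa (0.0587) and H2-Eb1 (0.30) reversed in MOCK, and in NAV H2-Ab1 (0.35), H2-Aa (0.29), H2-Eb1 (0.51), Mmp8 (-0.20) and Hp (-0.0170). For each of these H2 genes most UMIs of the NAV members were in 1 cell. Also in NAV, Wfdc21 (-1.23), Lrg1 (-0.65) and Hp (-0.27) reversed against cells with 1 or 2 Saa3 UMIs, Mmp8 (-1.13), Hp (-0.85) and C3 (-1.36) with thinning, and Mmp8 (-1.50) with Saa3 of at least 5 UMIs. Alternatives in which a gene had 0 counts gave no value where the bound fell on the other side of 0. The alternatives with Ly6c2-positive cells, without C1q-rich members, without the member with the most UMIs, without shared barcodes and without the Csf3r or Prg4 limits of the rule were chosen after seeing the data. The 24 NAV members limit every NAV value: a gene at 50 CPM there rests on 6.08 UMIs.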
